A study of Homo sapiens with 8 samples.

Results

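The genes described here are 10 regulators and effectors of the epithelial to mesenchymal transition (EMT): the EMT-inducing transcription factors ZEB1, ZEB2, SNAI1, SNAI2 and TWIST1, the epithelial transcription factors GRHL2 and OVOL1, the epithelial splicing regulators ESRP1 and ESRP2, and the intermediate filament protein vimentin (VIM). They were taken by gene symbol from the table of RNA-seq expression, and all 10 were among its 13771 genes. The cells were MCF10A, immortalized human breast epithelium that does not form tumors, and its relative DCIS.COM, which in mice gives lesions like ductal carcinoma in situ (DCIS). Each line was stably transduced with the lentiviral vector pCDH-HOTAIR, which carries the long noncoding RNA HOTAIR, or with the empty vector pCDH-empty, and was selected with puromycin. Each of the 4 groups was sequenced as 2 libraries, 8 in total. The labels do not say that the 2 libraries of a group came from separate cultures or transductions, so the p-values measure only the spread between these libraries. MCF10A was grown with epidermal growth factor, hydrocortisone, insulin and cholera toxin beside horse serum, whereas DCIS.COM received the serum alone, and cell line and medium therefore cannot be told apart.

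In EMT, epithelial cells lose their cell junctions and gain a motile phenotype. The SNAI and ZEB factors are zinc finger repressors that bind E-box sequences in the promoters of epithelial genes such as CDH1, and TWIST1 is a basic helix-loop-helix factor that acts in the same program. GRHL2, OVOL1 and the ESRP proteins maintain the epithelial state, GRHL2 and ZEB1 repress each other, and the miR-200 family and miR-205 silence ZEB1 and ZEB2. Basal breast epithelial cells normally express SNAI2 and some vimentin, and HOTAIR guides the chromatin repressor PRC2 to its target genes.

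Expression was read as log2 CPM, the authors' log2 of read counts scaled to library size with a small prior added. A gene was called when its adjusted p by limma was under 0.05 and it changed by 1.5-fold or more. Whole reads were recovered from these values, between 19306864 and 34884841 per library. HOTAIR reads numbered 40 to 45 in MCF10A with the empty vector against 4614 to 4827 with HOTAIR, and 119 to 140 against 6385 to 7166 in DCIS.COM, which matches the labels. The library DCIS.COM pCDH-empty 1 stood apart: its distance to its replicate was 46.4 over the log2 CPM of all genes against 22.3 to 29.9 between the replicates of the other groups, and 18.92% of its reads were RN7SL1 and RN7SL2 against 11.08% to 14.95% elsewhere. All 8 breast epithelial markers (KRT5, KRT14, KRT17, KRT8, KRT18, EPCAM, CDH1 and TP63) were expressed, with a summed level of 10500 to 11800 CPM in MCF10A and 6250 to 7840 CPM in DCIS.COM.

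The largest differences among these genes were between the cell lines. All 5 EMT-inducing factors were lower in DCIS.COM than in MCF10A under both vectors, and ZEB1, ZEB2 and SNAI2 were lower by an order of magnitude or more. VIM was not lower with either vector. With the empty vector, 7 of the 10 genes were called, 1 higher (VIM) and 6 lower (ZEB1, ZEB2, SNAI1, SNAI2, TWIST1 and OVOL1), where 46.3% of all genes were called, 22.5% higher and 23.8% lower. With the HOTAIR vector the same 6 genes were called lower and no other, against a background of 43.7% of all genes, 22.0% higher and 21.7% lower. These 6 genes were lower in both DCIS.COM libraries than in both MCF10A libraries under each vector, as were 40.9% of all genes with the empty vector and 44.3% with HOTAIR. The median log2 fold change of the 10 genes was -0.75 with the empty vector and -0.86 with the HOTAIR vector, beside medians near zero over all genes (-0.0001 and 0.0035). A log2 fold change of -3.5 or less, which ZEB1, ZEB2 and SNAI2 each had in both comparisons, was found in 3.7% and 3.57% of all genes. In bulk RNA, fewer cells that express a gene and less RNA per cell cannot be told apart.

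**Figure D1:**
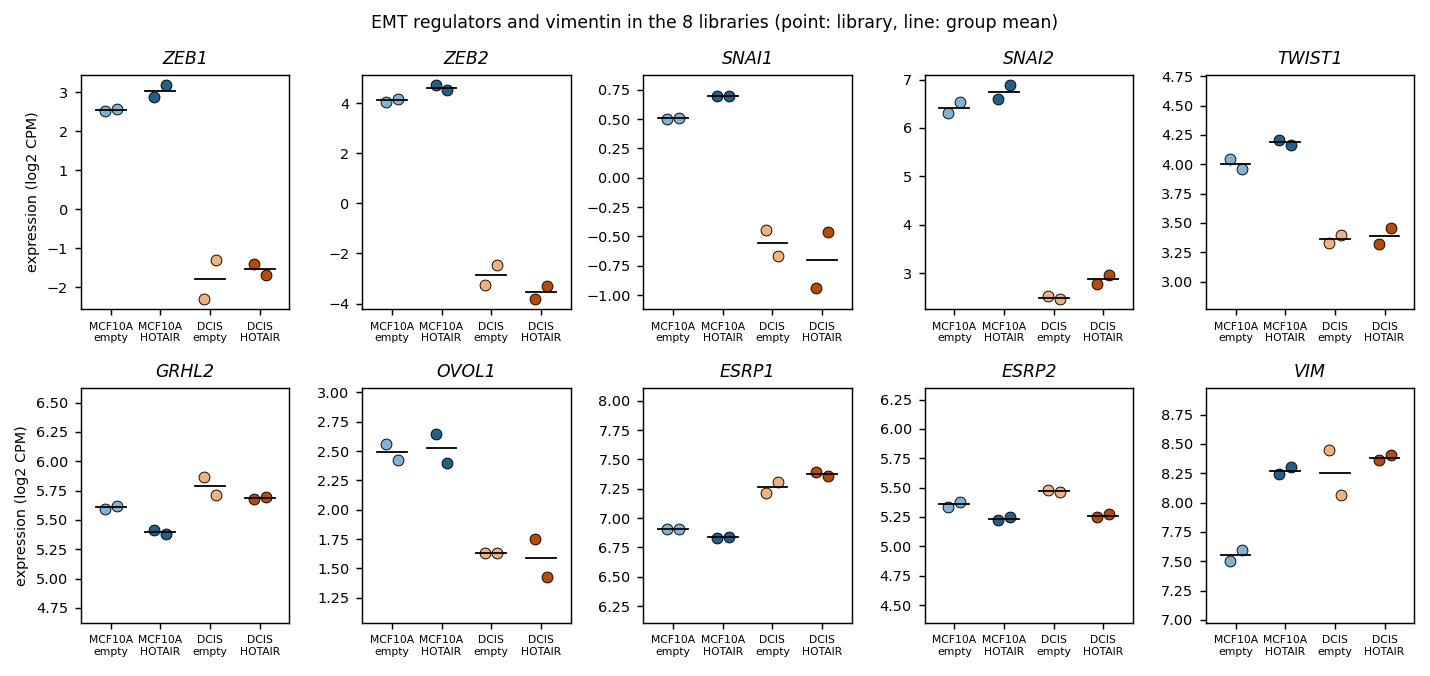
Expression of the 10 genes in the 8 libraries. Each panel is 1 gene, the y axis is expression in log2 CPM with its own range in each panel, points are libraries and lines are group means (n = 2). ZEB1, ZEB2, SNAI1, SNAI2, TWIST1 and OVOL1 are higher in all 4 MCF10A libraries than in all 4 DCIS.COM libraries, and VIM is lowest in the 2 MCF10A pCDH-empty libraries.

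ZEB2 (chromosome 2 from 145121931 to 145278624, minus strand, GRCh37) had the largest difference of the 10 genes. In MCF10A it had 521 and 474 reads with the empty vector and 510 and 460 with HOTAIR. In DCIS.COM it had 1 and 3 reads with the empty vector and 0 and 1 with HOTAIR. The count of 0 allows up to 3 reads, or 0.0844 CPM in that library, so ZEB2 was at the limit of detection in DCIS.COM. Pooled over the libraries of a group, the CPM was 245 times higher in MCF10A with the empty vector (95% interval 95.3 to 900) and 1700 times higher with the HOTAIR vector (305 to 67300), where the interval covers counting error only. The fitted log2 fold changes of -6.96 (SE 0.29, adjusted p = 2.96e-07) and -8.18 (SE 0.29, adjusted p = 1.34e-07) contain the prior and understate such a gene. ZEB2 ranked 72nd and 26th from the lowest of all 13771 log2 fold changes in these comparisons.

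ZEB1 (chromosome 10 from 31607424 to 31818742, plus strand, GRCh37), the paralog of ZEB2, followed the same pattern at a lower level. Its log2 CPM was 2.52 and 2.57 in MCF10A pCDH-empty, 2.89 and 3.18 in MCF10A pCDH-HOTAIR, -2.29 and -1.30 in DCIS.COM pCDH-empty, and -1.39 and -1.69 in DCIS.COM pCDH-HOTAIR. The MCF10A values rest on 142 to 180 reads per library and the DCIS.COM values on 4 to 11. The CPM of ZEB1 was 25.2 times higher in MCF10A with the empty vector (95% counting interval 14.5 to 47.8) and 29.8 times higher with HOTAIR (18.7 to 50.1). The corresponding log2 fold changes were -4.34 (SE 0.32, adjusted p = 6.69e-06) and -4.58 (SE 0.32, adjusted p = 5e-06).

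The miRNAs known to silence both ZEB genes are shown because ZEB1 and ZEB2 are their best known targets. Sequences are RefSeq on GRCh38.p14, 5′ to 3′, with the seed (bases 2 to 8) in capitals. They fall into 3 seed groups, miR-200b, miR-200c and miR-429, then miR-141 and miR-200a, then miR-205.
hsa-miR-200b-3p: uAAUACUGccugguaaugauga
hsa-miR-200c-3p: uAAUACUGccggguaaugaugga
hsa-miR-429: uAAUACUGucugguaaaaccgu
hsa-miR-141-3p: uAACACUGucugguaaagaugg
hsa-miR-200a-3p: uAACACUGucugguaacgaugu
hsa-miR-205-5p: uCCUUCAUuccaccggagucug

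A match to the whole seed, on the transcript strand of the canonical transcript's 3′ UTR (GRCh37, GENCODE release 44), was searched in 12377 genes of the table, whose UTRs had a median length of 1346 bases. The ZEB1 UTR of 2540 bases held 6 matches to the miR-200b, miR-200c and miR-429 seed (CAGTATT), 3 to the miR-141 and miR-200a seed (CAGTGTT) and 1 to the miR-205 seed (ATGAAGG). The ZEB2 UTR of 5370 bases held 5, 4 and 0. Of the other genes, SNAI2 held 1 match to the first seed, GRHL2 held 1 to the second and ESRP1 held 1 to each of these, and VIM, SNAI1, TWIST1, OVOL1 and ESRP2 held none of the 3. At least 1 match to these seeds was present in 19.5%, 21.6% and 13.1% of the genes, respectively. A match is a string of letters and does not show that the miRNA acts there. A few of these sites are printed with the match in capitals.
ZEB1, miR-200b, miR-200c and miR-429, chr10:31816546-31816570, plus strand: attgttttatcttatCAGTATTatc
ZEB1, miR-205, chr10:31816995-31817019, plus strand: aatatgtggtaacatATGAAGGata
ZEB2, miR-200b, miR-200c and miR-429, chr2:145146617-145146641, minus strand: cgcactaccatacatCAGTATTttt
ZEB2, miR-141 and miR-200a, chr2:145146801-145146825, minus strand: tgcaaaaattttgtaCAGTGTTaag

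Mature miRNAs were not measured in these libraries, and the genes of the miR-200 family were not analysed here. Reads on the miR-205 gene MIR205 and on its host transcript MIR205HG were counted. MIR205HG had a log2 CPM of 4.09 and 3.86 in MCF10A pCDH-empty, 4.49 and 4.51 in MCF10A pCDH-HOTAIR, 3.95 and 4.25 in DCIS.COM pCDH-empty, and 4.75 and 4.77 in DCIS.COM pCDH-HOTAIR. It was therefore higher in both HOTAIR libraries of each line, as were 22.5% of all genes in MCF10A and 24.7% in DCIS.COM. Neither difference was called (log2 fold change 0.53, adjusted p = 0.311 in MCF10A and 0.66, adjusted p = 0.124 in DCIS.COM). The median log2 fold change of MIR205HG and MIR205 with HOTAIR in DCIS.COM was 0.69 with all libraries. It was 0.91 without DCIS.COM pCDH-empty 2 and 0.47 without DCIS.COM pCDH-empty 1. The first of these fits keeps only the library that stood apart as the empty-vector library of this line. Between the lines MIR205HG was not called either (0.13 and 0.26). MIR205 had 11 to 56 reads per library and was called higher in DCIS.COM with the HOTAIR vector only (log2 fold change 1.10, SE 0.30, adjusted p = 0.0117). With the empty vector its difference was 0.43 (SE 0.30, adjusted p = 0.238). Since MIR205 lies within its host transcript, its reads may include reads of that transcript.

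The promoters of the ZEB genes and of VIM are shown because ZEB1 and ZEB2 had among the largest differences between the lines, and VIM differed in the other direction with the empty vector. The windows are RefSeq on GRCh38.p14, from 250 bases before to 50 after a transcription start, on the transcript strand. The E-box form CAGGTG, bound by SNAI and ZEB proteins, was searched on both strands, where its reverse complement reads CACCTG, and matches are in capitals. It was present in 20.6% of 35116 promoters of this length, and the looser E-box CANNTG, which contains it, in 68.7%. Of the 7 ZEB1 windows, the one with the most matches (3) is printed, another had 1 and the remaining windows had 0. ZEB2 and VIM, whose only windows are printed, had 0. The printed ZEB1 window was chosen by its count, so the genes are not compared by these counts. The other 7 genes had no promoter entry used here.
ZEB1, chr10:31318966-31319265, plus strand: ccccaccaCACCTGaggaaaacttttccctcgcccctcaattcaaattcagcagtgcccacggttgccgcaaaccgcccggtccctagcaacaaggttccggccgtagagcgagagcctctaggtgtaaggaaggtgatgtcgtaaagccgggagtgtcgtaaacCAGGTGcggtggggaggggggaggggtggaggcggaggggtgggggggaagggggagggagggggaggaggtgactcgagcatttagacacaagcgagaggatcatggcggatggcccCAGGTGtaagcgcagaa
ZEB2, chr2:144520070-144520369, minus strand: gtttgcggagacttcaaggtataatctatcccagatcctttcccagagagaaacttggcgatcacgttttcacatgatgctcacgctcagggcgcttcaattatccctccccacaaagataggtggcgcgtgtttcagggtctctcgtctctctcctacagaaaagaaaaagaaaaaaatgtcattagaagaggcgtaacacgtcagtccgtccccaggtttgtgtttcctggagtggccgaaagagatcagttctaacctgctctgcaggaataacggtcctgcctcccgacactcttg
VIM, chr10:17227991-17228290, plus strand: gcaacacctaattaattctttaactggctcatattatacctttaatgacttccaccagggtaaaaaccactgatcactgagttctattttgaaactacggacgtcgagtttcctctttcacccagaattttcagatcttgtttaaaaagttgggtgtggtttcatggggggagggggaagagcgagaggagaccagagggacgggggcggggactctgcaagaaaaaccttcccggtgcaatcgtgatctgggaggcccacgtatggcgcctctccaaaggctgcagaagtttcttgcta

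SNAI2 (Slug) was the most abundant of the 5 EMT factors in MCF10A. Its log2 CPM was 6.30 and 6.54 in MCF10A pCDH-empty, 6.60 and 6.88 in MCF10A pCDH-HOTAIR, 2.52 and 2.47 in DCIS.COM pCDH-empty, and 2.78 and 2.96 in DCIS.COM pCDH-HOTAIR. In both lines the 2 HOTAIR libraries were above the 2 empty-vector libraries, as for 22.5% of all genes in MCF10A and 24.7% in DCIS.COM. Between the lines it fell by 3.92 with the empty vector (SE 0.13, adjusted p = 8.22e-08) and by 3.87 with HOTAIR (SE 0.13, adjusted p = 8.88e-08) on the log2 scale. These values rest on 147 to 259 reads per library in DCIS.COM, so the remaining expression of SNAI2 was above the limit of detection there, unlike that of ZEB2. The CPM ratio of MCF10A to DCIS.COM was 15.3 (95% counting interval 13.6 to 17.2) and 14.8 (13.5 to 16.3).

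SNAI1 (Snail), the paralog of SNAI2, was at a low level in both lines, with 30 to 42 reads per MCF10A library and 15 to 22 per DCIS.COM library. Its log2 CPM was 0.50 and 0.51 in MCF10A pCDH-empty and 0.70 in both MCF10A pCDH-HOTAIR libraries. It was -0.44 and -0.66 in DCIS.COM pCDH-empty and -0.94 and -0.46 in DCIS.COM pCDH-HOTAIR. SNAI1 was called lower in DCIS.COM with either vector (log2 fold change -1.06, SE 0.22, adjusted p = 0.00317, and -1.40, SE 0.22, adjusted p = 0.000722). With 1 CPM added to the values the empty-vector difference was -0.54 and no longer reached 1.5-fold.

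TWIST1 had the smallest difference of the 5 factors. It was at 4.05 and 3.96 log2 CPM in MCF10A pCDH-empty, 4.21 and 4.16 in MCF10A pCDH-HOTAIR, 3.33 and 3.40 in DCIS.COM pCDH-empty, and 3.32 and 3.46 in DCIS.COM pCDH-HOTAIR. The log2 fold change between the lines was -0.64 (SE 0.09, adjusted p = 0.000446) with the empty vector and -0.80 (SE 0.09, adjusted p = 0.000129) with HOTAIR. Quantile normalization brought the first of these to -0.54, below the 1.5-fold limit.

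Because the factors fell by unequal amounts, their order changed. On the scale of CPM per kilobase of the canonical transcript, the levels ran SNAI2, TWIST1, ZEB2, ZEB1, SNAI1 in all 4 MCF10A libraries and TWIST1, SNAI2, SNAI1, ZEB1, ZEB2 in all 4 DCIS.COM libraries, from highest to lowest. Here SNAI2 was at 36.1 to 54.1 CPM per kilobase in MCF10A and 2.52 to 3.54 in DCIS.COM, and TWIST1 at 9.52 to 11.3 and 6.09 to 6.69. The ratio of SNAI2 to TWIST1 was thus 3.58 to 4.94 in MCF10A and 0.391 to 0.529 in DCIS.COM. The sum of the 5 factors was 49.8 to 70.0 CPM per kilobase in MCF10A and 9.13 to 10.7 in DCIS.COM. ZEB1 and SNAI1 were neighbours in MCF10A (0.956 to 1.52 and 0.790 to 0.910). With lengths from the union of all exons, SNAI2 stayed above TWIST1 in MCF10A and below it in DCIS.COM, while the order of ZEB1, ZEB2 and SNAI1 in MCF10A varied between libraries and is not resolved.

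**Figure D2:**
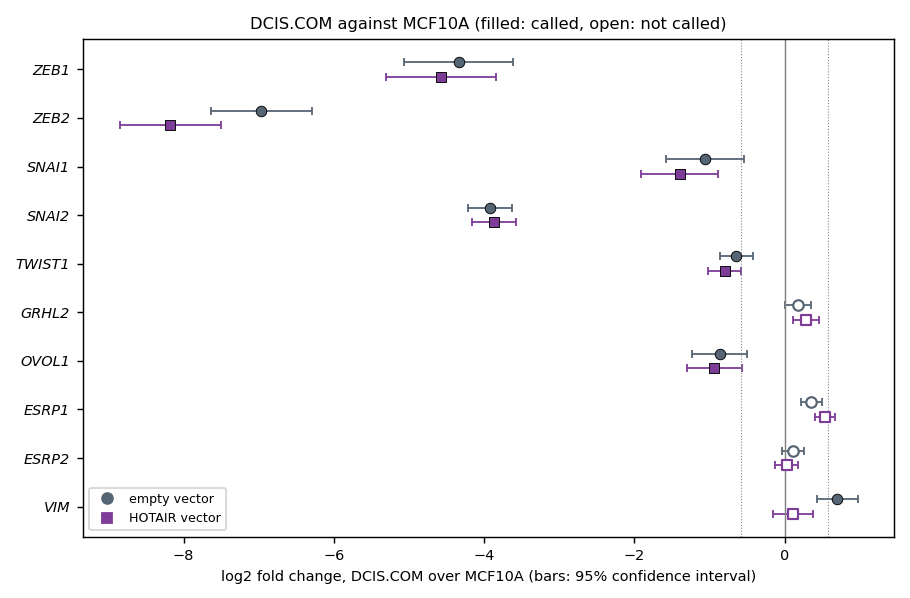
Difference between the cell lines for each of the 10 genes. The x axis is the log2 fold change of DCIS.COM over MCF10A, circles are the empty vector and squares the HOTAIR vector, bars are 95% confidence intervals, dotted lines mark a fold change of 1.5, and filled points were called. ZEB2 is farthest to the left (-6.96 and -8.18), and VIM with the empty vector is the only point called above zero (0.70).

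The epithelial regulators did not move together between the lines. GRHL2, a grainyhead factor that activates epithelial junction genes, was at 5.59 and 5.62 log2 CPM in MCF10A pCDH-empty, 5.42 and 5.38 in MCF10A pCDH-HOTAIR, 5.87 and 5.71 in DCIS.COM pCDH-empty, and 5.68 and 5.70 in DCIS.COM pCDH-HOTAIR. It differed between the lines by 0.18 with the empty vector (95% confidence interval 0.01 to 0.35, adjusted p = 0.056) and by 0.29 with HOTAIR (0.12 to 0.46, adjusted p = 0.00919), both under the 1.5-fold limit. OVOL1, a zinc finger repressor of ZEB1, was instead lower in DCIS.COM. Its log2 CPM was 2.56 and 2.43 in MCF10A pCDH-empty, 2.65 and 2.40 in MCF10A pCDH-HOTAIR, 1.63 in both DCIS.COM pCDH-empty libraries, and 1.75 and 1.43 in DCIS.COM pCDH-HOTAIR. It was called with the empty vector (log2 fold change -0.86, SE 0.16, adjusted p = 0.00156) and with HOTAIR (-0.93, SE 0.16, adjusted p = 0.00106). OVOL1 and ZEB1 were thus both lower in DCIS.COM. A noncoding gene on the opposite strand shares 1039 exonic bases with OVOL1, and without stated use of strand their reads cannot be told apart. The same holds for ZEB2 (1299 exonic bases shared with ZEB2-AS1), ZEB1 (396 with ZEB1-AS1), TWIST1 (141), SNAI2 (121) and GRHL2 (50). ZEB2 also shares 2966 exonic bases with a pseudogene on its own strand.

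ESRP1, which drives the epithelial splice forms of FGFR2 and CD44, was higher in DCIS.COM than in MCF10A in all libraries. Its log2 CPM was 6.90 and 6.91 in MCF10A pCDH-empty, 6.83 and 6.84 in MCF10A pCDH-HOTAIR, 7.21 and 7.31 in DCIS.COM pCDH-empty, and 7.39 and 7.36 in DCIS.COM pCDH-HOTAIR. The difference passed the test with either vector (log2 fold change 0.36, SE 0.06, adjusted p = 0.000904, and 0.54, SE 0.06, adjusted p = 8.34e-05) but stayed under 1.5-fold, where 68.2% and 65.5% of all genes had an adjusted p under 0.05. Its paralog ESRP2 differed by 0.11 (95% confidence interval -0.04 to 0.26) and 0.03 (-0.12 to 0.18), intervals that do not reach a 1.5-fold change. The ratio of ESRP1 to ESRP2 in CPM per kilobase was 2.63 to 2.78 in MCF10A and 3.03 to 4.01 in DCIS.COM. ESRP2 shares 227 exonic bases with NFATC3 on the opposite strand, which had 431 to 768 reads per library against 721 to 1350 for ESRP2.

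VIM (chromosome 10 from 17270240 to 17279592, plus strand, GRCh37), the filament protein of mesenchymal cells, was the highest of the 10 genes per kilobase in each of the 8 libraries. Its log2 CPM was 7.50 and 7.60 in MCF10A pCDH-empty, 8.25 and 8.30 in MCF10A pCDH-HOTAIR, 8.45 and 8.06 in DCIS.COM pCDH-empty, and 8.36 and 8.40 in DCIS.COM pCDH-HOTAIR. The 2 MCF10A pCDH-empty libraries were below the other 6, whose values ran from 8.06 to 8.45. On these values VIM was 1.63-fold higher in DCIS.COM than in MCF10A with the empty vector (log2 fold change 0.70, SE 0.12, adjusted p = 0.000822) and was not called with the HOTAIR vector (0.11, 95% confidence interval -0.16 to 0.38, adjusted p = 0.421). Without DCIS.COM pCDH-empty 1, the library that stood apart, the empty-vector difference was 0.51 (adjusted p = 2.47e-05), which is under 1.5-fold. ZEB1, ZEB2 and SNAI2 were thus lower in the line in which VIM was not lower.

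In MCF10A the mean level of VIM was 7.55 log2 CPM with the empty vector and 8.27 with HOTAIR, a log2 fold change of 0.72 (SE 0.12, 95% confidence interval 0.45 to 0.99, 1.65-fold), and both HOTAIR libraries were above both empty-vector libraries. Both HOTAIR libraries were higher in this way for 22.5% of all genes. VIM ranked 142nd from the highest of 13771 log2 fold changes. The difference had an unadjusted p of 0.000268 and an adjusted p of 0.155, and was therefore not called. In DCIS.COM the log2 fold change was 0.13 (95% confidence interval -0.14 to 0.40, adjusted p = 0.537), and the libraries overlapped. The difference between these effects was -0.59 (SE 0.16, unadjusted p = 0.00693, adjusted p = 0.385) and did not pass either. These calls varied with the setting, and the cause was not tested. All libraries enter the shared estimate of spread. Without either DCIS.COM pCDH-empty library VIM was called in MCF10A with the same log2 fold change. It was not called when any of the other libraries was left out. The difference in effect between the lines was -0.40 without DCIS.COM pCDH-empty replicate 1 and -0.79 without replicate 2. Correction for GC content also gave a call in MCF10A (0.70, adjusted p = 0.0411). Limma-voom on the recovered reads gave none (0.72, adjusted p = 0.112). Neither did limma on MCF10A alone (0.72, adjusted p = 0.183) or with the replicate number as a block (0.72, adjusted p = 0.247). The fit on MCF10A alone called 1 gene of the whole table. The same kind of fit on DCIS.COM called 0, so not even HOTAIR, and the lack of a call in such a fit says little. The HOTAIR effect in MCF10A and the difference between the lines with the empty vector share the same 2 MCF10A pCDH-empty libraries, so they are not independent of each other.

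The antisense transcript VIM-AS1, which shares 656 exonic bases with VIM on the opposite strand, had 23 to 80 reads per library where VIM had 5153 to 11699. Its log2 fold change with HOTAIR was 0.46 in MCF10A (adjusted p = 0.693) and 0.22 in DCIS.COM (adjusted p = 0.536), and it was called higher in DCIS.COM with both vectors (0.94, adjusted p = 0.00321, and 0.71, adjusted p = 0.0136). A further noncoding gene on that strand shares 619 exonic bases with VIM and was not analysed here. Without stated use of strand, the reads of VIM and VIM-AS1 on the shared bases cannot be told apart. Of the filament partners, synemin (SYNM) was called higher in DCIS.COM (3.38 and 2.89) and the linker plectin (PLEC) lower (-0.94 and -1.53). VIM is also expressed by fibroblasts. Of 8 fibroblast markers, 2 (COL1A1 and COL1A2) were measured, and their summed level was 8.47 to 10.2 CPM in MCF10A with the empty vector and 17.1 to 18.1 CPM with HOTAIR, but 1.04 to 1.66 CPM in all DCIS.COM libraries. PDGFRB, PDGFRA, DCN, LUM, COL3A1 and THY1 were not among the genes analysed here. The sum therefore moved with VIM in MCF10A and not between the lines, and its part in the VIM result was not tested. Of 5 leukocyte markers CD68 and CD14 summed to 41.4 to 47.1 CPM in MCF10A and 5.63 to 6.55 in DCIS.COM, and of 5 endothelial markers PECAM1 was at 1.70 to 2.69 and 10.1 to 13.3 CPM.

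None of the 10 genes was called in the comparison of HOTAIR with empty vector in either line by limma, or by limma-voom. The background was low as well: 0.0218% of all genes were called in MCF10A and 0.0871% in DCIS.COM, all of them higher with HOTAIR. At an unadjusted p under 0.05 there were 3 of the 10 genes in MCF10A, SNAI2 and VIM higher and GRHL2 lower, where 7.28% of all genes passed, 4.41% higher and 2.88% lower. In DCIS.COM there were also 3, SNAI2 higher and ESRP2 and ZEB2 lower, where 17.5% passed, 9.08% higher and 8.41% lower. By limma-voom these counts were 5 and 1, where 6.82% and 20.4% of all genes passed. For the difference in HOTAIR effect between the lines no gene of the 10 passed an adjusted p under 0.05, as did 0.0436% of all genes, and 2 (VIM and ZEB2) had an unadjusted p under 0.05, both lower, as did 10.5% of all genes, 5.34% in that direction. The ZEB2 values in DCIS.COM rest on 4 reads against 1 in total and are not interpreted.

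For HOTAIR in MCF10A the directions are given by role, and none of the differences passed the test. Whether the direction differs by role was not tested. ZEB1, ZEB2, SNAI1, SNAI2, TWIST1 and VIM were higher in both HOTAIR libraries than in both empty-vector libraries, which held for 22.5% of all genes. GRHL2, ESRP1 and ESRP2 were lower in both, which held for 24.8% of all genes, and OVOL1 overlapped. The log2 fold changes of the 5 EMT factors were 0.49 for ZEB1 (95% confidence interval -0.24 to 1.22), 0.51 for ZEB2 (-0.16 to 1.19), 0.19 for SNAI1 (-0.33 to 0.71), 0.32 for SNAI2 (0.03 to 0.61) and 0.18 for TWIST1 (-0.04 to 0.40). Those of the epithelial regulators were -0.21 for GRHL2 (-0.38 to -0.04), 0.03 for OVOL1 (-0.34 to 0.40), -0.07 for ESRP1 (-0.21 to 0.07) and -0.12 for ESRP2 (-0.27 to 0.02). The lowest adjusted p among these 9 genes was 0.581 (GRHL2), and only the intervals of SNAI2 and GRHL2 leave out zero.

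In DCIS.COM, 6 of the 10 genes had a log2 fold change of the same sign as in MCF10A: ZEB1, SNAI2, TWIST1 and VIM above zero and GRHL2 and ESRP2 below it. SNAI2 was higher in both HOTAIR libraries (0.38, 95% confidence interval 0.09 to 0.67, adjusted p = 0.246), a difference of 0.05 from its effect in MCF10A (95% confidence interval -0.36 to 0.47). ESRP2 was lower in both (-0.21, -0.36 to -0.06, adjusted p = 0.231), as were GRHL2 (-0.10, -0.27 to 0.07) and the few reads of ZEB2, and ESRP1 was higher in both (0.11, -0.02 to 0.25). Values higher or lower in both HOTAIR libraries were found for 24.7% and 24.5% of all genes. ZEB1, SNAI1, TWIST1, OVOL1 and VIM overlapped between the vectors. ZEB1 is at 4 to 11 reads here: the effect was -0.24 when the first DCIS.COM pCDH-empty library was left out and 0.75 when the second was, the latter with an adjusted p of 0.0339.

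**Figure D3:**
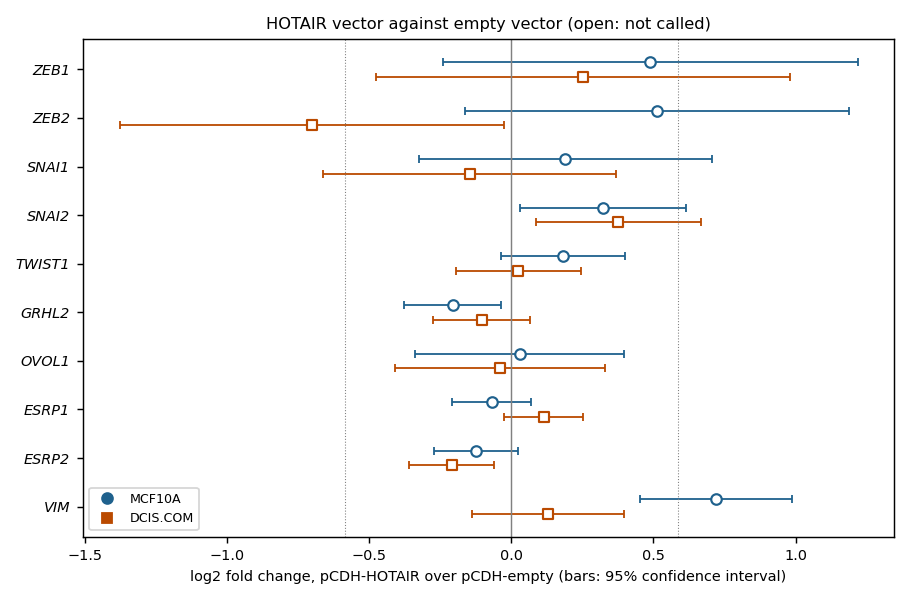
HOTAIR effect on the 10 genes in each line. The x axis is the log2 fold change of pCDH-HOTAIR over pCDH-empty, circles are MCF10A and squares DCIS.COM, bars are 95% confidence intervals and dotted lines mark a fold change of 1.5. All points are open because none was called, and VIM in MCF10A (0.72) is the only point beyond the upper dotted line.

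Lists of other genes of the same program were assembled beside the 10 genes. Of 30 mesenchymal genes other than the 10, 25 were measured, and between the lines with the empty vector 6 were called higher and 18 lower in DCIS.COM, with a median log2 fold change of -1.98. With the HOTAIR vector 4 were called higher and 18 lower, with a median of -2.26. The genes called were 96.0% and 88.0% of the list, where 46.3% and 43.7% of all genes were called. The matrix protein TGFBI fell by 6.17 with either vector, from 26067 to 30936 reads per MCF10A library to 364 to 713 per DCIS.COM library. The fibronectin receptor subunit ITGA5 (-3.88 and -4.14) was also lower, and POSTN, a matrix protein, had 376 to 476 reads per library in MCF10A and at most 1 in DCIS.COM. The 6 that were higher with the empty vector, named here after their values were seen, were SPARC, CDH11, COL6A1, ITGB3, AXL and TNC. SPARC, a matricellular protein, had 4 to 6 reads per MCF10A library and 5269 to 6547 per DCIS.COM library. VIM was therefore on the side of the minority of mesenchymal genes in this comparison.

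The same mesenchymal list in MCF10A had no gene called with HOTAIR by limma or limma-voom. Of the 25 genes, 23 had a positive log2 fold change and 2, CDH11 and COL6A1, had no reads in MCF10A. The list was chosen with earlier results of these data known, and the study had named CDH2 and AXL as upregulated in MCF10A. The counts of this list are therefore not independent of that result. At an unadjusted p under 0.05 there were 13 genes, all higher, where 4.41% of all genes were higher at that p. Limma-voom gave 17, all higher, where 6.82% of all genes passed in either direction. The median was 0.47, beside -0.0055 over all genes, and VIM at 0.72 was above it. The 4 with the smallest p were the collagen cross-linking enzyme LOXL2 (0.62, adjusted p = 0.155), N-cadherin CDH2 (0.68, adjusted p = 0.215), the receptor tyrosine kinase AXL (1.09, adjusted p = 0.215) and the proteoglycan VCAN (1.05, adjusted p = 0.225). Without either DCIS.COM pCDH-empty library the median was the same (0.47). Limma on MCF10A alone called 1 gene of the whole table and none of the 25. It had 14 of the 25 higher and 0 lower at an unadjusted p under 0.05, where 14.9% of all genes passed in either direction. In DCIS.COM 7 were higher and 4 lower at an unadjusted p under 0.05, where 9.08% and 8.41% of all genes were, with a median of 0.05, and none was called.

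Of 26 epithelial junction and surface genes, 25 were measured. In DCIS.COM against MCF10A, 7 were called higher and 4 lower with the empty vector, and 11 higher and 3 lower with HOTAIR. These are 44% and 56% of the list, where 46.3% and 43.7% of all genes were called, so the share with the empty vector was close to that of all genes. The adhesion molecule EPCAM (2.33 and 2.63), the claudin CLDN4 (2.29 and 2.60) and the tricellular junction receptor LSR (1.06 and 0.98) were higher, and the mucin MUC1 was lower (-5.74 and -5.40). With HOTAIR in MCF10A none was called by either tool, and 5 had an unadjusted p under 0.05, all lower, where 2.88% of all genes were lower at that p. By limma-voom there were 4, all lower, where 6.82% of all genes passed in either direction. The smallest p-values were those of CLDN1 (-0.33, adjusted p = 0.458), EPCAM (-0.28, adjusted p = 0.497), AP1M2 (-0.19, adjusted p = 0.615) and LLGL2 (-0.18, adjusted p = 0.615). In DCIS.COM 4 had an unadjusted p under 0.05, all higher, where 17.5% of all genes passed, 9.08% higher and 8.41% lower. CLDN1 was 0.29 there (adjusted p = 0.246).

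**Figure D4:**
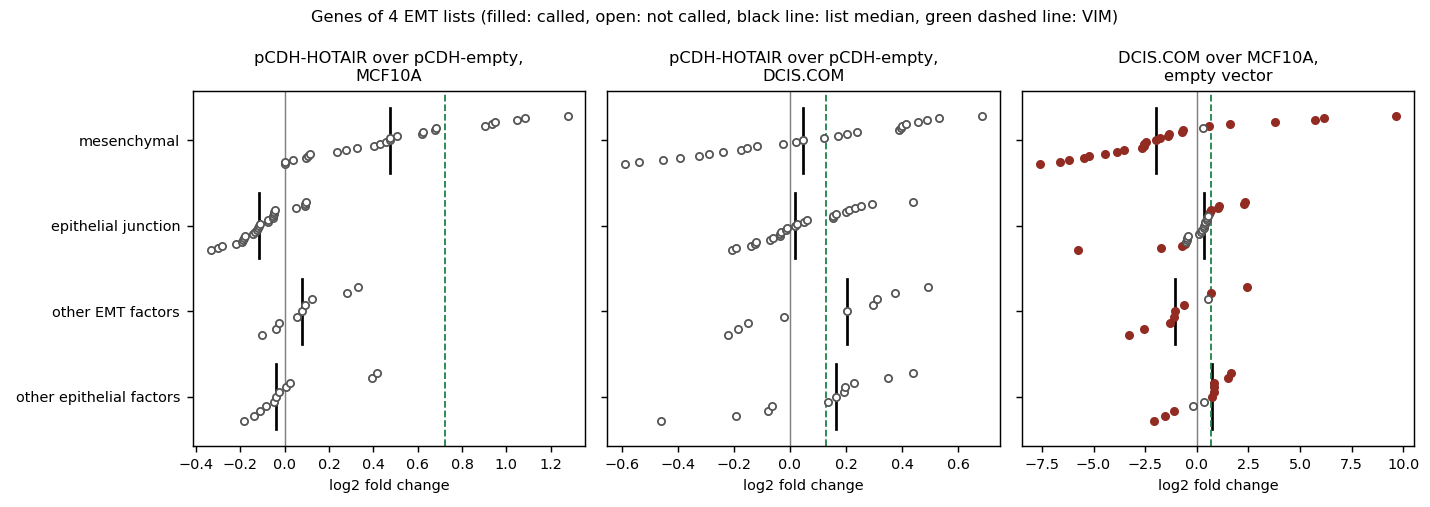
Log2 fold changes of the genes in 4 lists, in 3 comparisons with separate x axes. Each point is 1 gene, filled points were called, black lines are list medians and the green dashed line is VIM. In MCF10A the mesenchymal genes lie at or above zero with a median of 0.47 and the epithelial junction genes centre on -0.11, and between the lines the mesenchymal genes spread to both sides with a median of -1.98.

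Of 13 other EMT-inducing transcription factors, 9 were measured, and 2 were called higher and 6 lower in DCIS.COM under either vector, 88.9% of the list against 46.3% and 43.7% of all genes. The forkhead factor FOXQ1 (-2.53 and -2.61) and KLF8 (-3.28 and -3.05) were among those that were lower. Of 12 other epithelial transcription factors, 11 were measured, with 6 called higher and 3 lower under either vector, 81.8% of the list. GRHL1, the paralog of GRHL2 (1.70 with HOTAIR), and the luminal factor FOXA1 (1.66 and 1.44) were higher, and KLF4 (-2.08 and -2.43) and KLF5 (-1.52 and -1.31) were lower. Of the 11 other splicing regulators of EMT only RBFOX2, which promotes mesenchymal splice forms, was called (-1.09 and -1.15), 9.09% of the list. Of 13 co-repressors used by the SNAI and ZEB factors, 2 were called higher and 2 lower with the empty vector and 1 higher and 2 lower with HOTAIR, 30.8% and 23.1% of the list and below the share of all genes. The CoREST subunit RCOR1 (-1.10 and -1.16) and the LIM protein AJUBA (-1.25 and -1.17) were lower and the PRC2 methyltransferase EZH2 was higher (0.78 and 0.87), and the LIM protein LIMD1, named after its values were seen, was called higher with the empty vector (0.62). Of 7 genes for the turnover of SNAI, TWIST and ZEB proteins, the phosphatase CTDSP1 was lower (-1.03 and -1.12) and the ubiquitin ligase FBXL14 was called higher with the empty vector (0.61), 28.6% and 14.3% of the list. None of the genes of these 5 lists was called for HOTAIR in either line by limma or limma-voom. Of their 51 measured genes, 1 had an unadjusted p under 0.05 in MCF10A, TP63 (0.42), where 7.28% of all genes passed. By limma-voom there were 3, where 6.82% of all genes passed. In DCIS.COM there were 12, 8 of them higher and 4 lower, where 17.5% of all genes passed.

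The genes whose profile over the 8 libraries was most like that of VIM, by the root mean square difference of centred log2 CPM, were SLC6A8 (0.11), LOC100129484 (0.12), RAB38 (0.12), MSRB3 (0.12) and MRGPRX3 (0.13). The closest to ZEB1 were ADAMTS14 (0.16) and LINC02381 (0.20), to ZEB2 PPP1R3C (0.35) and GALC (0.36), to SNAI2 SCEL (0.11) and FOXO1 (0.13), to SNAI1 PUS3 (0.09) and METRNL (0.10), and to TWIST1 ABHD12 (0.05) and DAPK3 (0.05). For GRHL2 they were LLGL2 (0.03), itself in the epithelial junction list, and MAPK13 (0.04), for OVOL1 CLBA1 (0.08) and APOL2 (0.08), for ESRP1 PSMG3 (0.03) and CDKN2AIP (0.03), and for ESRP2 PRDM10 (0.03) and IQCH-AS1 (0.04). None of the other 9 genes was among the 5 closest to VIM.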

How the data were processed

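RNA of the transduced cells was sequenced as 8 ScriptSeq paired-end libraries. Per the study's methods, alignment to hg19 used Rsubread and counting used featureCounts on UCSC known genes. The authors deposited log2 CPM normalized with edgeR for 13771 genes, of which 343 had no symbol. Strand use and the prior count are not given in the sources used here. Whole reads were recovered here from the equal steps above a shared prior of 0.0717 CPM, for 100% of values within 0.05 reads. Deeper libraries have less counting error, and intervals from reads cover counting error only, since the reads carry no molecular identifiers.

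Groups were compared with limma 3.58.1 in R 4.3.3, with 4 group means, a mean-variance trend and Benjamini-Hochberg adjustment over all genes. A call needed an adjusted p-value under 0.05 and 1.5-fold, and the interaction the p-value only. The test was checked on simulated data with equal spread in all groups and changes larger than the HOTAIR effects on the 10 genes. That check does not cover those smaller effects. The genes, lists and tests were chosen with earlier results of these data known. All 10 genes are named, with at most 4 per list by smallest p-value and the nearest profiles (5 for VIM, 2 for each other gene). Replicate numbers did not pair the libraries. Positions and lengths come from GENCODE release 44 on GRCh37. Python 3.11.15 was used otherwise.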

Additional observations from a re-analysis of the deposited data

How the results depend on the processing

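Over settings that kept all libraries, the 10 genes kept their direction and side of the threshold in 489 of 505 results of single genes. The exceptions in direction were small values: OVOL1 in MCF10A (-0.012) and in the difference between lines (0.003) with GC correction, TWIST1 in DCIS.COM with quantile normalization (-0.026), and SNAI2 in the difference between lines with quantile normalization (-0.047) or GC correction (-0.05). For HOTAIR in MCF10A, 3 genes of the table were called, all higher, and 6 with 1 CPM added, 5 with limma-voom, 11 with GC correction (7 higher), 1 in a separate fit and 1 at 2-fold, and GC correction called 1 of the 10 genes (VIM). In DCIS.COM, 12 were called, all higher, and 6 without the trend, 46 with GC correction (39 higher), 0 in a separate fit (limma, 1203 at an unadjusted p under 0.05) and 5 at 2-fold. For the difference between lines, 6 were called, and 0 without the trend (1414 at an unadjusted p under 0.05), 10 with 1 CPM added and 27 with GC correction. At 2-fold, 3871 genes and 4 of the 10 were called between the lines with the empty vector, and 3667 genes with HOTAIR. The cause of these changes was not tested.

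With the replicate number as a block (replicate block), 20 genes were called in DCIS.COM and 0 for the difference between lines (1342 at an unadjusted p under 0.05), and no call of the 10 genes changed. The numbers did not pair the libraries: deviations correlated at 0.066 between the MCF10A groups and -0.009 between the DCIS.COM groups.

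Leaving out each library in turn gave 1 to 51 genes in MCF10A (0 to 1 of the 10), 1 to 1403 in DCIS.COM (0 to 1 of the 10), 0 to 4414 for the difference between lines (0 to 2 of the 10), 6044 to 6941 between lines with the empty vector (6 to 7 of the 10) and 5722 to 6106 with HOTAIR (6 in each case). The high ends came without a DCIS.COM pCDH-empty library, and a lone library was then assumed to vary like the other groups. Direction changed within -0.095 to 0.154 for OVOL1 in MCF10A. In DCIS.COM it changed within -0.24 to 0.75 for ZEB1, -0.386 to 0.093 for SNAI1, -0.042 to 0.092 for TWIST1, -0.20 to 0.12 for OVOL1 and -0.066 to 0.322 for VIM. For the difference between lines it changed within -0.73 to 0.26 for ZEB1, -0.089 to 0.198 for SNAI2 and -0.23 to 0.09 for OVOL1. Depth limits ZEB1 and ZEB2 in DCIS.COM and SNAI1 throughout.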
